A study of Homo sapiens with 30 samples.

Results

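The genes described here are 35 human genes of homologous recombination, the Fanconi anaemia pathway and the DNA damage checkpoint, read from RNA sequencing of the multiple myeloma cell lines OPM2 and Delta47. They were taken by symbol, with no rule on their values, but with earlier results of these data known. All 35 are present among the 16407 genes of the OPM2 table and the 17286 genes of the Delta47 table. In both lines the transcription factor gene FOXM1 had been edited at exon 2 with Cas9 ribonucleoprotein, and single knockout clones were grown out. OPM2 has a group with the FOXM1c vector in clone 1 (KO1R), a group with an empty vector in clone 1 (KO1EV), untransduced knockout clones 2 and 1 (KO2 and KO1) and an unedited group (WT). Delta47 has a group with the FOXM1c vector in clone 2 (KO2R), untransduced knockout clones 2 and 1 (KO2 and KO1) and an unedited group (WT). Each group has 3 libraries. Each knockout group is 1 clone, so a difference from WT may belong to the clone, and clone differences cannot be told apart from loss of FOXM1. The vector cells had been sorted for GFP. The labels do not say whether the 3 libraries of a group are separate cultures, and the spread behind each p-value may therefore be technical.

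Homologous recombination repairs a double-strand break by copying an intact sister chromatid. The break ends are first trimmed to single strands, BRCA2 and its partner PALB2 then act on the single strands, and the matching sequence is searched for and copied. The Fanconi anaemia pathway unhooks crosslinks between DNA strands. Its core complex, with UBE2T as ubiquitin-conjugating enzyme, attaches ubiquitin to FANCD2 and FANCI. ATM and ATR are the kinases that sense breaks and stalled replication, and CHEK2 and CHEK1 carry their signals to the cell cycle. FOXM1 is a forkhead transcription factor of proliferating cells, and in other cancer cells it has been described as an activator of repair genes that include BRCA2, BRIP1, NBN and EXO1. Myeloma is a cancer of plasma cells that is often treated with melphalan, a drug that crosslinks DNA.

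Promoter windows of 300 bases (250 before to 50 after the annotated start) were taken from RefSeq, build GRCh38.p14, where 31 of the 35 genes matched. NBN, RAD54B, DNA2 and FANCI had no entry. Both strands were searched for the CHR letters TTTGAA, the forkhead letters TAAACA, the CCAAT box CCAAT, and 4 E2F-type runs, which are TTTGGCGC or TTTCCCGC or TTCGCGC or TTGGCGG. The last of these can share bases with a reversed CCAAT box. The windows of 4 genes are shown: CHEK1 (chr11:125625979-125626278, plus strand) and TOPBP1 (chr3:133661892-133662191, minus strand), the genes called higher with the FOXM1 vector in OPM2; BRIP1 (chr17:61863479-61863778, minus strand), called lower in OPM2 KO2; and RAD54L (chr1:46247438-46247737, plus strand), called higher in both Delta47 clones. Capitals mark a match to any of the letters searched.
CHEK1: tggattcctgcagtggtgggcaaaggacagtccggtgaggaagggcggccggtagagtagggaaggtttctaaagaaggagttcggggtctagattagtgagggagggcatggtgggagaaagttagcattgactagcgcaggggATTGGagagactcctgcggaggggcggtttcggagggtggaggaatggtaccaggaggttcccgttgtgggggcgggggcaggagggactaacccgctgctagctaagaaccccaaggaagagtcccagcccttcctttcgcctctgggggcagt
TOPBP1: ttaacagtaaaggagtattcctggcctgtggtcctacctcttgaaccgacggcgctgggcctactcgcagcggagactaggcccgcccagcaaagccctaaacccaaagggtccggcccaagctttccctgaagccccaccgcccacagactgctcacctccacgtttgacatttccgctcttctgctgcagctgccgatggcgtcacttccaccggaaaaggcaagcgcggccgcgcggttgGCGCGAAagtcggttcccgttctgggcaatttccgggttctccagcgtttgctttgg
BRIP1: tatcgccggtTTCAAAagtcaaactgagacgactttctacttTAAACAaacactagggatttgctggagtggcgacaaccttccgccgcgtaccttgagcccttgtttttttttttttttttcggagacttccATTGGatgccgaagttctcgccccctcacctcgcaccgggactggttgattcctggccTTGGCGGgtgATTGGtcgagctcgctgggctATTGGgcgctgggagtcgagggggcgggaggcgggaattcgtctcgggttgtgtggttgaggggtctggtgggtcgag
RAD54L: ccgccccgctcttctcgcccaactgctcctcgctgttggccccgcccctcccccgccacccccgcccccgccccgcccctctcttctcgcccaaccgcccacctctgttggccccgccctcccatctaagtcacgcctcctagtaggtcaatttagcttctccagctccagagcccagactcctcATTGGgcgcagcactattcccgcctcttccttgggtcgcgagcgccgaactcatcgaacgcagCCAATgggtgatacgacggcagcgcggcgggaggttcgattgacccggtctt
The CHEK1 window holds 1 match, a CCAAT box read on the minus strand that begins 105 bases before the start. TOPBP1 has 1 E2F-type match, TTCGCGC on the minus strand, 7 bases before the start. BRIP1 is the single gene of the 31 with a forkhead match, 208 bases before the start, and its window also holds a CHR match, 3 CCAAT boxes and 1 E2F-type match. RAD54L holds 2 CCAAT boxes. Over the 31 windows an E2F-type match was present in 8 (25.8%), against 7.75% of 27303 windows of all genes. CHR letters were present in 12.9% of the windows of these genes against 15.4% of all, forkhead letters in 3.23% against 12.4%, and a CCAAT box in 41.9% against 35.7%. Among the 5 genes with a window that were called in one direction in both Delta47 clones, BLM held 3 CCAAT boxes and RAD54L 2, while ATR, RAD50 and RBBP8 held no match. These are matches of letters, not sites shown to be bound.

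Levels were FPKM (fragments scaled to transcript length and library size) in OPM2. In Delta47 they were the authors' expression value, whose unit the table does not name. The 2 lines stand in separate tables and were not tested against each other. FOXM1 itself had 91.24, 93.28 and 91.67 FPKM in OPM2 KO1 and 57.11, 59.55 and 69.73 FPKM in OPM2 KO2, against 175.26, 175.63 and 176.8 FPKM in WT. It had 262.89, 278.01 and 291.72 FPKM in KO1R, against 105.86, 105.33 and 108.77 FPKM in KO1EV. In Delta47 its value was 94.37, 102.44 and 101.29 in KO2R, 47.11, 46.1 and 45.35 in KO2 and 46.09, 49.78 and 47.97 in KO1, against 87.1, 88.81 and 90.85 in WT. Transcript was thus present in every knockout group, at a lower level than in WT. A transcript level does not measure protein. All 9 plasma cell marker genes were at a mean of 1 or more in each group of both lines, and no T cell or myeloid marker was. In OPM2, 1 of 3 B cell markers was at 1 or more in each group, and 1 of 5 stromal or endothelial markers in KO2 and in WT. In Delta47, 3 of 4 epithelial markers and 1 of 6 stromal or endothelial markers were at 1 or more, with summed values given beside the KO2 results.

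All 35 genes passed the filter for testing (a value of 1 or more in at least 3 libraries of the line), so no gene is missing from the counts. In OPM2 WT the highest was UBE2T, with 88.01, 84.12 and 85.76 FPKM, then RBBP8 with 59.3 ± 2.96 FPKM (SD, n = 3) and FANCI with 35.6 ± 2.01 FPKM. The lowest were FANCB, a core complex subunit, with 1.37 ± 0.294 FPKM, and FANCM, the DNA translocase of that complex, with 1.40 ± 0.271 FPKM. These last 2 do not differ beyond their spread. Log2 fold changes below are of value + 1, which understates the change of such low genes. No gene of the 35 reached a log2 fold change of 1 or −1 in any of 11 comparisons between groups.

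**Figure D1:**
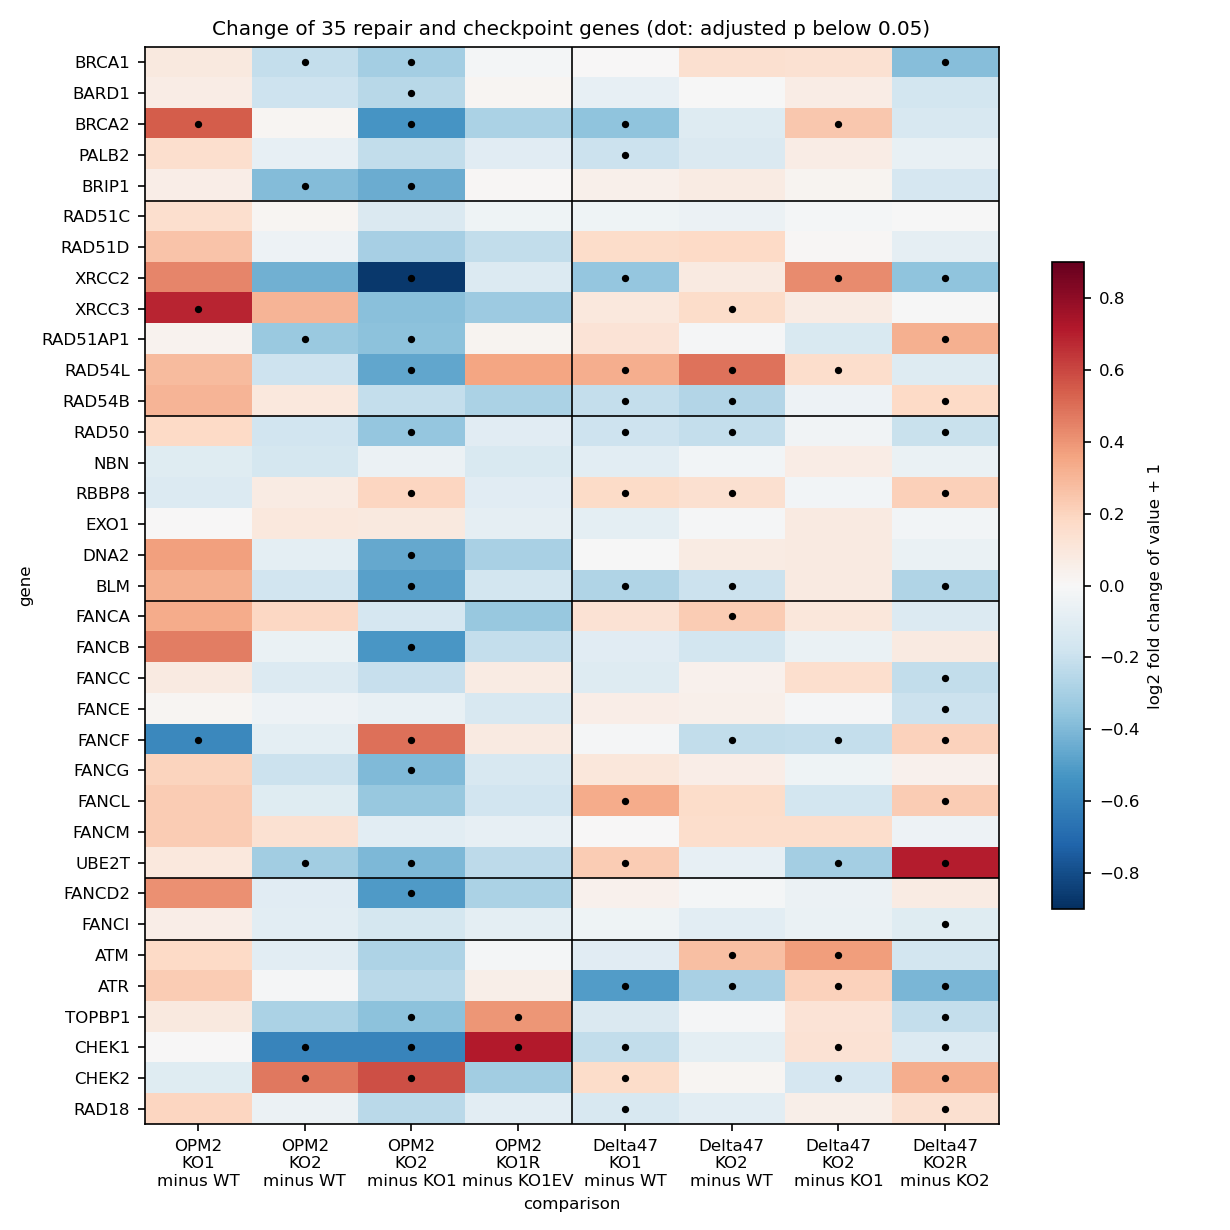
Log2 fold change of value + 1 for each of the 35 genes (rows, grouped by role between black lines: BRCA1 and BRCA2 complexes, strand exchange, end processing, Fanconi core, FANCD2 and FANCI, checkpoint) in 8 comparisons (columns, OPM2 left and Delta47 right of the vertical line). Red is higher in the first group named, blue lower, and a dot marks an adjusted p below 0.05. CHEK1 is the strongest blue in OPM2 KO2 against WT (−0.59) and the strongest red in OPM2 KO1R against KO1EV (0.71).

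In OPM2 the 2 knockout clones had 0 called genes of the 35 in common by limma. At an unadjusted p below 0.05, 3 genes passed in both clones, 0 of them in the same direction. How many of all genes did so at that threshold was not counted, so these may be ordinary numbers. Clone KO1 had 2 genes called higher than WT (BRCA2 and XRCC3) and 1 called lower (FANCF). Over all 10309 genes tested, 14.5% were called higher and 6.72% lower in KO1. Clone KO2 had 1 gene called higher (CHEK2) and 5 called lower (BRCA1, BRIP1, RAD51AP1, UBE2T and CHEK1), where 6.54% of all genes were called higher and 7.82% lower. Of all tested genes, 1.87% were called higher and 1.68% lower in both clones. The median log2 fold change of the 35 was 0.18 in KO1 (all genes 0.07) and −0.09 in KO2 (all genes 0.02). With quantile scaling the KO1 count was 2 higher and 2 lower (10.5% and 11.1% of all genes), and with size factor scaling 2 higher and 3 lower (11.7% and 9.16% of all genes). With the replicate number as a block, KO1 had 5 higher and 1 lower (17.7% and 7.76% of all genes), and FANCD2 (adjusted p = 0.0283), FANCA (adjusted p = 0.0307) and XRCC2 (adjusted p = 0.0476) joined the higher calls.

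A KO2 library stood apart from the other KO2 libraries. Each gene in KO2 replicate 3 was set against its average in KO2 replicates 1 and 2. The standard deviation of these differences over all genes was 0.533 (log2). Treated the same way, each against its 2 companions, KO2 replicates 1 and 2 gave 0.282 and 0.277. In KO2 replicate 3, 31 of the 35 genes lay above the KO2 mean (58.2% of all genes did). The median of the 35 genes minus their WT mean was 0.16 in KO2 replicate 3, and −0.22 and −0.19 in KO2 replicates 1 and 2. Outside KO2, the largest such standard deviation was 0.271 (log2), in KO1EV replicate 3. Because the spread is shared over all OPM2 groups, these libraries touch every OPM2 test. Without both, KO1 had 19 of the 35 called higher and 2 lower (38% and 20.9% of all genes), and KO2 had 1 called higher and 22 lower (19.3% and 21.9% of all genes). Fitted with only the groups compared, KO1 had 18 higher and 1 lower (35.4% and 19.1% of all genes) and KO2 had 0 higher and 1 lower (1.33% and 2.45% of all genes). In that KO2 fit the gene still called was CHEK1. In KO1 the libraries of 18 of the 35 genes all lay above WT (39.1% of all genes) and of 3 all below (21.6% of all genes). In KO2 this held for 1 gene above (14.2%) and 7 below (14.4%).

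**Figure D2:**
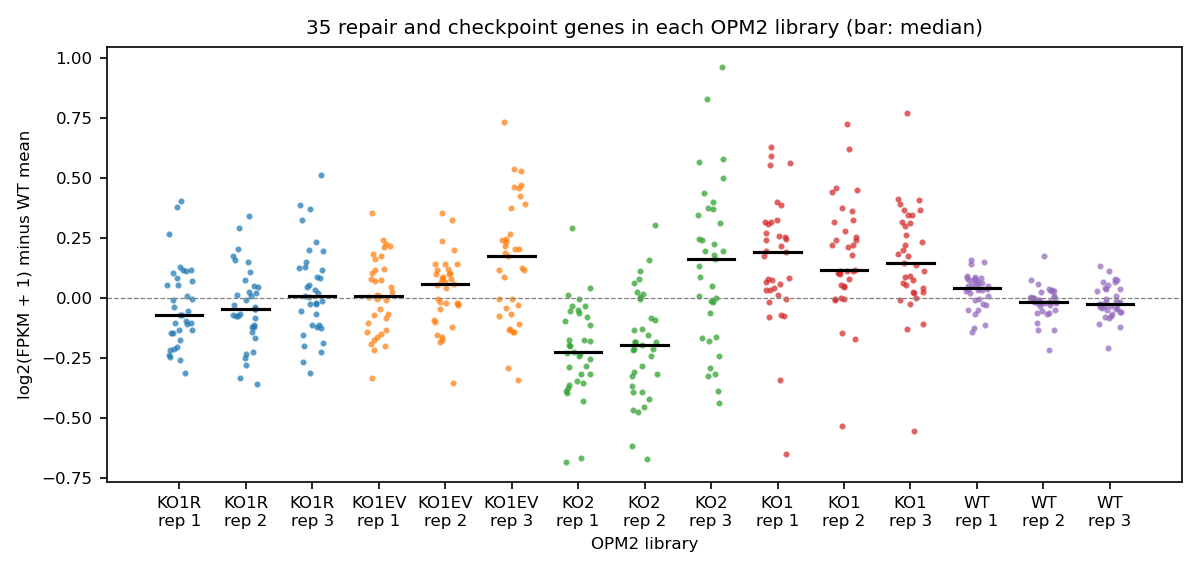
Log2(FPKM + 1) minus the WT mean of each of the 35 genes (points) in each OPM2 library (x axis), with the median of the 35 as a bar. The bars of KO2 replicates 1 and 2 sit at −0.22 and −0.19, that of KO2 replicate 3 at 0.16, and those of the 3 KO1 libraries between 0.12 and 0.19.

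Of the 5 genes of the BRCA1 and BRCA2 complexes, BRCA1 and BRIP1 were called lower in OPM2 KO2 and BRCA2 was called higher in OPM2 KO1. BRCA1, the ubiquitin ligase that acts early in recombination, had 12.9, 13.38 and 13.11 FPKM in KO1 and 10.6, 11.12 and 9.66 FPKM in KO2, against 13.06, 11.71 and 12.06 FPKM in WT. The KO2 libraries all lay below WT, while KO1 and WT overlapped. BRCA1 fell in KO2 by 0.21 ± 0.06 (log2, SE; adjusted p = 0.0385), a call lost in 5 of 6 fits that leave out a library (adjusted p up to 0.147), and its difference in KO1 was 0.09 ± 0.06 (adjusted p = 0.294). BRCA2, a central mediator of recombination, had 5.25, 5.39 and 4.53 FPKM in KO1 and 2.66, 2.89 and 4.16 FPKM in KO2, against 3.07, 3.37 and 3.01 FPKM in WT. KO1 lay wholly above WT, and KO2 overlapped WT through its replicate 3. BRCA2 rose in KO1 by 0.54 ± 0.14 (adjusted p = 0.0166), a call lost in 4 of 6 fits that leave out a library (adjusted p up to 0.0655). In KO2 its difference was 0.01 ± 0.14 (adjusted p = 0.961). BRIP1, the helicase that binds BRCA1, averaged 3.25 ± 0.207 FPKM in KO2 and 4.57 ± 0.272 FPKM in WT (SD, n = 3 each), a fall of 0.39 ± 0.07 (log2; adjusted p = 0.00147) that kept its call in every fit leaving out a library. BRIP1, UBE2T, XRCC3, XRCC2, RAD51AP1, CHEK2, TOPBP1 and OPM2 FANCF are described with their values because of their calls, after those values were seen. EXO1 was not called and is also described with its values outside the rule for printing them. BARD1 and PALB2 were not called in either clone, with log2 differences from WT between −0.18 and 0.15.

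The 7 strand exchange genes held 1 call in each OPM2 clone. XRCC3, which acts in strand exchange, averaged 25.2 ± 1.94 FPKM in KO1 and 15.3 ± 1.46 FPKM in WT and rose by 0.69 ± 0.21 (adjusted p = 0.0329), a call lost in all 6 fits leaving out a library (adjusted p up to 0.108). In KO2 it had 14.62, 15.42 and 30.69 FPKM, so replicate 3 was far above the rest of its group. RAD51AP1, which promotes strand pairing, averaged 17.1 ± 0.999 FPKM in KO2 and 21.8 ± 2.11 FPKM in WT and fell by 0.33 ± 0.07 (adjusted p = 0.00758), with the call kept in every fit that leaves out a library. RAD51C, RAD51D, XRCC2, RAD54L and RAD54B were not called against WT in either clone. Of the 6 end processing genes (RAD50, NBN, RBBP8, EXO1, DNA2 and BLM) 0 were called in KO1 or KO2 against WT by limma. At an unadjusted p below 0.05, for which no share of all genes was counted, 4 passed in KO1 and 2 in KO2. EXO1, the exonuclease that extends trimming, averaged 28.8 ± 0.534 FPKM in KO1, 30.8 ± 1.89 FPKM in KO2 and 28.7 ± 1.08 FPKM in WT, with overlapping libraries.

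Among the 9 Fanconi core genes, FANCF fell in KO1 and UBE2T fell in KO2. FANCF, an adaptor subunit of the core, averaged 12.3 ± 0.577 FPKM in KO1 and 18.9 ± 0.992 FPKM in WT, a fall of 0.58 ± 0.10 (adjusted p = 0.00189) kept in every fit that leaves out a library. KO1 lay wholly below WT. UBE2T had 65.14, 61.58 and 82.37 FPKM in KO2, against 88.01, 84.12 and 85.76 FPKM in WT, and lay wholly below WT. It fell by 0.31 ± 0.09 (adjusted p = 0.0286), and that call was lost in 5 of 6 fits that leave out a library (adjusted p up to 0.0979). FANCD2, the protein that receives the ubiquitin, had 14.05, 14.64 and 14.27 FPKM in KO1 and 8.23, 8.18 and 13.64 FPKM in KO2, against 10.44, 10.33 and 10.75 FPKM in WT. KO1 lay above WT, and KO2 lay below WT in 2 libraries and above it in replicate 3. Neither difference was called (KO1 0.41 ± 0.15 with an adjusted p of 0.0646, KO2 −0.10 ± 0.15 with an adjusted p of 0.715). Without the 2 libraries that stand apart, FANCD2 was called higher in KO1 (adjusted p = 1.81e-05) and lower in KO2 (−0.32, adjusted p = 0.000753).

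CHEK1 gave the clearest difference among the 6 checkpoint genes. It encodes the kinase that ATR activates. It had 28.44, 27.74 and 27.27 FPKM in KO1 and 17.13, 17.11 and 20.28 FPKM in KO2, against 29.28, 27.47 and 26.69 FPKM in WT. KO1 lay inside the WT range, and KO2 lay wholly below. CHEK1 fell in KO2 by 0.59 ± 0.07 (adjusted p = 5.48e-05), with the call kept in every fit leaving out a library, while KO1 differed by 0.00 ± 0.07 (adjusted p = 0.993). CHEK2, the kinase downstream of ATM, averaged 21.8 ± 5.09 FPKM in KO2 and 15.2 ± 1.00 FPKM in WT and rose by 0.48 ± 0.14 (adjusted p = 0.0328), a call that each fit leaving out a WT library lost (adjusted p up to 0.125). CHEK2, BRCA1 and FANCD2 have partial pseudogene copies, so their reads may be shared between loci. ATM had 8.74, 10.83 and 10.71 FPKM in KO1 and 8.02, 8.79 and 7.62 FPKM in KO2, against 8.58, 8.39 and 9.31 FPKM in WT. Its groups overlapped, and no difference was called (KO1 0.18 ± 0.11 with an adjusted p of 0.239, KO2 −0.10 ± 0.11 with an adjusted p of 0.624). ATR, TOPBP1 and RAD18 were not called in either clone.

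**Figure D3:**
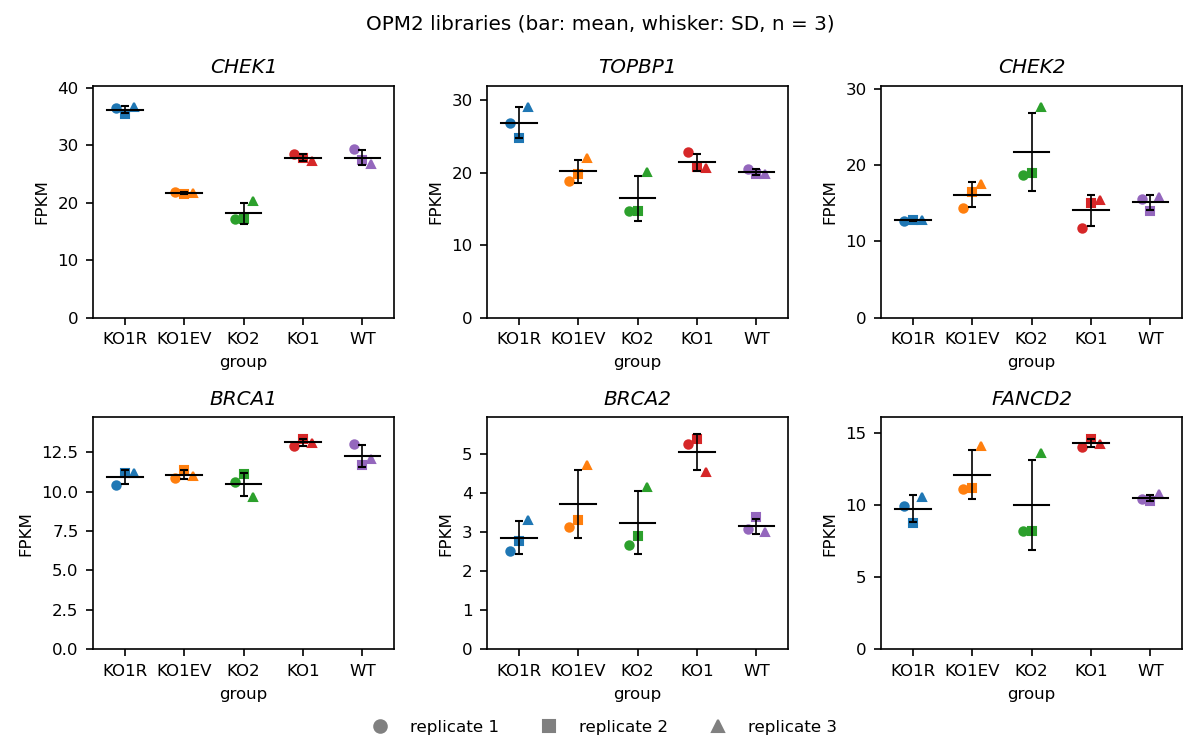
FPKM of 6 genes in each OPM2 library (points, shape by replicate), with the mean as a bar and the SD as a whisker (n = 3). CHEK1 in KO1R (35.52 to 36.65) lies above every other group, and in KO2 (17.11 to 20.28) below every other group. KO2 replicate 3 lies above the other KO2 libraries in BRCA2, FANCD2, TOPBP1, CHEK1 and CHEK2.

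Set against each other, the OPM2 clones differed in genes of every role. KO2 minus KO1 had 3 of the 35 called higher and 16 lower, where 10.8% of all genes were called higher and 19.1% lower. The median log2 difference was −0.30 for the 35 and −0.06 for all genes. The 16 were made up of 4 of 5 in the BRCA1 and BRCA2 complexes, 3 of 7 strand exchange genes, 3 of 6 end processing genes, 3 of 9 Fanconi core genes, FANCD2, and 2 of 6 checkpoint genes. Fitted with only KO2 and KO1 there were 0 called higher and 4 lower (3.29% and 8.3% of all genes). XRCC2, which acts in strand exchange, had 3.54, 3.76 and 6.33 FPKM in KO2, against 10.29, 8.45 and 7.99 FPKM in KO1, and was lower in KO2 by 0.87 ± 0.16 (adjusted p = 0.00111), the largest difference among the 35 in any comparison. FANCF, CHEK2 and RBBP8 were the genes called higher in KO2 than in KO1, by 0.49, 0.58 and 0.19. Of the 19 calls, 11 held in every fit that leaves out a library. Without the 2 libraries that stand apart there were 3 higher and 26 lower (25% and 42.7% of all genes). Without KO2 replicate 3 alone there were 29 calls, without KO2 replicate 2 there were 11 and without KO2 replicate 1 there were 12. Of all 10309 genes, 6270, 2224 and 2169 were called in these fits, in the same order. FOXM1 was also lower in KO2 than in KO1 (−0.57 ± 0.07, adjusted p = 5.07e-05). The part of the clone in this difference was not tested.

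With FOXM1c returned to OPM2 KO1 cells, 2 checkpoint genes rose. Against KO1EV, KO1R had 2 of the 35 called higher and 0 lower (3.1% and 5.12% of all genes; the median log2 difference was −0.10 for the 35 and −0.06 for all genes). At an unadjusted p below 0.05, 3 were higher and 3 lower, and the share of all genes at that threshold was not counted. CHEK1 had 36.47, 35.52 and 36.65 FPKM in KO1R, against 21.87, 21.5 and 21.7 FPKM in KO1EV. The groups did not overlap. CHEK1 rose by 0.71 ± 0.07 (adjusted p = 1.94e-05), and every fit leaving out a library kept the call. KO1EV was itself below untransduced KO1 (27.27 to 28.44 FPKM) in CHEK1, by 0.34 ± 0.07 (adjusted p = 0.00797), the 1 call of the 35 in KO1EV minus KO1 (1.78% of all genes were called higher and 3.17% lower). Without the 2 libraries that stand apart, 2 were called higher and 11 lower in KO1EV than in KO1 (12.6% and 19.4% of all genes). KO1R also lay above WT in CHEK1, by 0.37 ± 0.07 (adjusted p = 0.00222). TOPBP1, which activates ATR, had 26.86, 24.78 and 29.08 FPKM in KO1R, against 18.91, 19.79 and 21.99 FPKM in KO1EV, and rose by 0.39 ± 0.11 (adjusted p = 0.0363). Its groups did not overlap, but the call was lost in 5 of 6 fits that leave out a library (adjusted p up to 0.125). CHEK1 was the gene of the 35 that was called lower in an OPM2 clone (KO2) and higher with the vector, which was put into the other clone.

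No other gene of the 35 passed the test in KO1R against KO1EV. BRCA1 had 10.44, 11.22 and 11.17 FPKM in KO1R, against 10.87, 11.39 and 11.02 FPKM in KO1EV (−0.02 ± 0.06, adjusted p = 0.872). BRCA2 had 2.5, 2.76 and 3.31 FPKM in KO1R, against 3.13, 3.31 and 4.72 FPKM in KO1EV (−0.28 ± 0.14, adjusted p = 0.251). These BRCA1 and BRCA2 libraries overlapped. FANCD2 had 9.95, 8.78 and 10.58 FPKM in KO1R, against 11.1, 11.22 and 14.1 FPKM in KO1EV, with KO1R wholly below (−0.28 ± 0.15, adjusted p = 0.271). ATM had 8.73, 7.2 and 9.82 FPKM in KO1R, against 7.63, 9.03 and 9.36 FPKM in KO1EV (−0.02 ± 0.11, adjusted p = 0.931). The libraries of 3 of the 35 genes lay wholly above KO1EV and of 13 wholly below (14.7% and 28.2% of all genes). Against WT, KO1R had CHEK1 and TOPBP1 called higher and NBN (−0.32 ± 0.07, adjusted p = 0.00694) and UBE2T (−0.29 ± 0.09, adjusted p = 0.0361, lost in all 6 fits that leave out a library) called lower, where 6.38% of all genes were called higher and 8.29% lower.

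In Delta47, 6 genes were called in the same direction in both knockout clones. RAD54L and RBBP8 rose, and ATR, BLM, RAD50 and RAD54B fell. In all, KO1 had 5 of the 35 called higher and 9 lower (28.9% and 23.7% of all 11001 genes tested), and KO2 had 5 higher and 5 lower (28.4% and 15.2% of all genes). Over all genes, 17.1% were called higher and 10.2% lower in both clones. With quantile scaling KO2 had 3 higher and 10 lower (22.4% and 19.1% of all genes), and with size factor scaling 2 higher and 10 lower (18.8% and 20.5% of all genes). The libraries of 5 of the 35 genes lay wholly above WT in KO1 and of 10 wholly below (31.8% and 27.8% of all genes). In KO2 these were 6 and 7 genes (34.4% and 18.7% of all genes). The medians of the 35 were −0.04 in KO1 (all genes 0.02) and −0.01 in KO2 (all genes 0.05). The summed value of the stromal and endothelial markers was 14.19 to 15.92 in KO2 and 3.2 to 3.53 in KO1, against 1.67 to 1.77 in WT. That of the plasma cell markers was 3241.59 to 3294.88 in KO2 and 4455.83 to 4558.85 in KO1, against 4600.2 to 4724.85 in WT. That of the epithelial markers was 9.59 to 11.2 in KO2 and 7.94 to 8.55 in KO1, against 5.49 to 6.47 in WT. The B cell markers, 2 of 3 of which were at 1 or more, summed to 11.74 to 12.27 in KO2 and 7.19 to 8.34 in KO1, against 8.04 to 9.22 in WT. The part of these in the results was not tested, and in bulk RNA fewer cells of a type and less RNA per cell cannot be told apart.

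RAD54L, a motor protein that drives strand exchange, had values of 9.84, 8.51 and 9.19 in KO2 and 8.04, 8.1 and 8.16 in KO1, against 6.31, 6.37 and 6.06 in WT. Every knockout library lay above every WT library. RAD54L rose in KO2 by 0.49 ± 0.05, with an adjusted p of 2.07e-06, and in KO1 by 0.33 ± 0.05, with an adjusted p of 0.000106. These were the strongest rise in KO2 and, after FANCL, the next strongest in KO1. RBBP8, also called CtIP, which starts end trimming, had 22.53, 22.13 and 22.77 in KO2 and 23.31, 22.26 and 23.05 in KO1, against 21.3, 20.46 and 18.99 in WT. Again the groups did not overlap. RBBP8 rose by 0.15 ± 0.05 (adjusted p = 0.0248) and 0.17 ± 0.05 (adjusted p = 0.0086) in KO2 and KO1. Its call was lost in 3 of 6 fits leaving out a library in KO2 and in 1 of 6 in KO1, and in KO2 also with quantile scaling (adjusted p = 0.0838).

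ATR, the kinase of stalled replication, had 8, 7.71 and 8.01 in KO2 and 7.03, 6.3 and 6.78 in KO1, against 10.61, 9.81 and 9.35 in WT. Every knockout library lay below every WT library. ATR fell in KO2 by 0.29 ± 0.07, with an adjusted p of 0.00187, and in KO1 by 0.50 ± 0.07, with an adjusted p of 9.7e-06. It had the strongest fall in both. BLM, the helicase that works in end trimming and dissolves crossed strands, had 7.67, 7.72 and 6.83 in KO2 and 7.12, 7.2 and 6.52 in KO1, against 8.69, 8.3 and 8.81 in WT. No knockout library reached the WT range. BLM fell by 0.19 ± 0.06 in KO2 (adjusted p = 0.0156) and by 0.27 ± 0.06 in KO1 (adjusted p = 0.00116). RAD50, a subunit of the complex that holds break ends, had 13.33, 13.97 and 13.11 in KO2 and 13.47, 13.17 and 14.67 in KO1, against 17.15, 15.75 and 14.54 in WT, so KO1 overlapped WT by 1 library. RAD50 fell by 0.21 ± 0.07 in KO2 (adjusted p = 0.0203) and by 0.19 ± 0.07 in KO1 (adjusted p = 0.0346). RAD54B, a relative of RAD54L, had 7.7, 8.65 and 9.02 in KO2 and 8.65, 8.56 and 9.04 in KO1, against 10.95, 10.85 and 9.27 in WT. The knockout libraries lay below WT, the nearest by a small margin. RAD54B fell by 0.26 ± 0.07 in KO2 (adjusted p = 0.00769) and by 0.22 ± 0.07 in KO1 (adjusted p = 0.0194). The ATR calls held in every fit leaving out a library, as did BLM in KO1 and RAD54B in KO2. BLM in KO2 lost its call in 2 of 6 such fits, RAD50 in 4 of 6 for KO1 and 3 of 6 for KO2, and RAD54B in 4 of 6 for KO1.

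**Figure D4:**
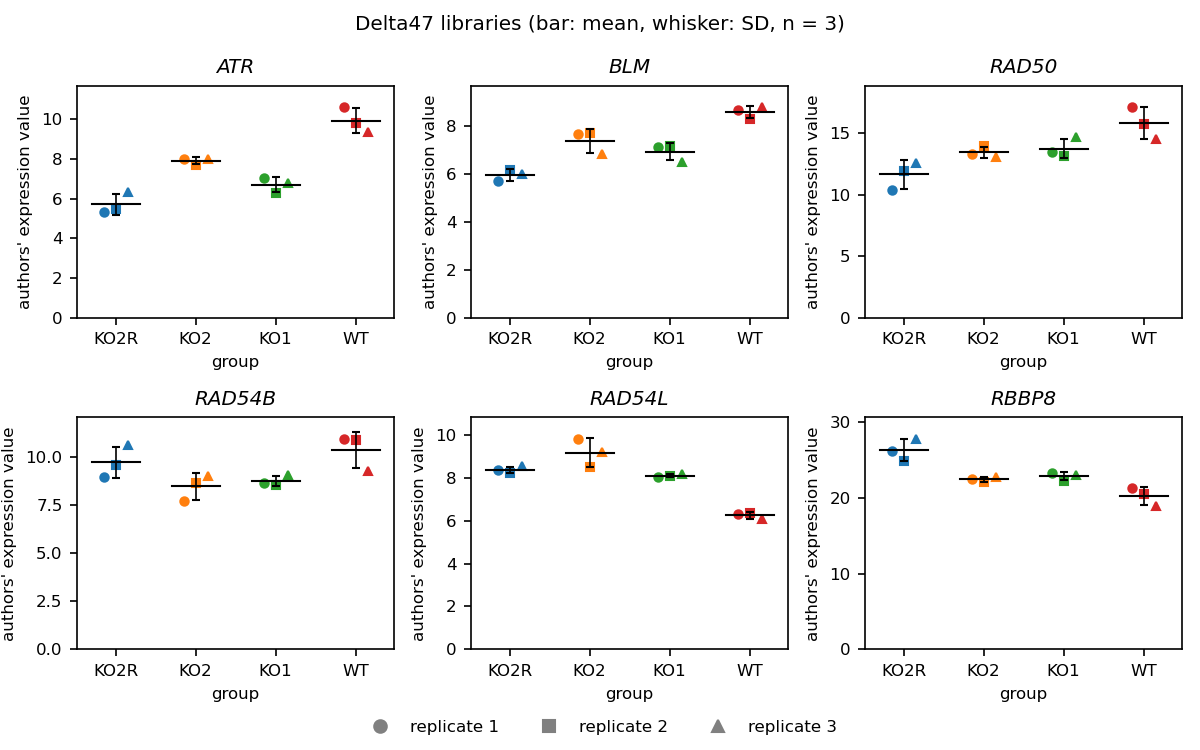
Authors' expression value of the 6 genes called in the same direction in both Delta47 clones, in each library (points, shape by replicate), with the mean as a bar and the SD as a whisker (n = 3). ATR in KO2R (5.31 to 6.33), KO2 (7.71 to 8.01) and KO1 (6.3 to 7.03) lies below WT (9.35 to 10.61), and RAD54L in KO2R (8.24 to 8.54), KO2 (8.51 to 9.84) and KO1 (8.04 to 8.16) lies above WT (6.06 to 6.37).

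The other Delta47 calls were made in 1 clone each. In KO1, FANCL (0.33), UBE2T (0.23) and CHEK2 (0.17) were called higher and BRCA2 (−0.36), XRCC2 (−0.35), CHEK1 (−0.22), PALB2 (−0.19) and RAD18 (−0.15) lower. In KO2, ATM (0.27), FANCA (0.23) and XRCC3 (0.17) were called higher and FANCF (−0.22) lower. In fits that leave out a library, PALB2 lost its KO1 call in 3 of 6 (adjusted p up to 0.167), RAD18 its KO1 call in 4 of 6 (up to 0.104) and XRCC3 its KO2 call in 4 of 6 (up to 0.152). BRCA2 was low throughout, with 1.13, 0.95 and 0.98 in KO2 and 0.75, 0.64 and 0.72 in KO1, against 1.4, 1.15 and 1.03 in WT. It reached the filter value of 1 in every WT library and in a KO2 library, but in no KO1 or KO2R library. BRCA2 was thus tested through the group where it was high, and its KO1 call carries that limit. KO1 lay wholly below WT and KO2 overlapped it (KO1 −0.36 ± 0.08 with an adjusted p of 0.00186, KO2 −0.12 ± 0.08 with an adjusted p of 0.282). ATM had 13.85, 11.44 and 11.71 in KO2 and 8.52, 8.79 and 10.6 in KO1, against 10.76, 9.98 and 9.3 in WT. KO2 lay wholly above WT (0.27 ± 0.09, adjusted p = 0.0212, a call lost in 3 of 6 fits leaving out a library), and KO1 overlapped it (−0.10 ± 0.09, adjusted p = 0.369).

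CHEK1 had 55.3, 56.45 and 56.66 in KO2 and 49.99, 49.95 and 53.71 in KO1, against 61.19, 58.86 and 59.1 in WT. Both clones lay wholly below WT, and the call was made in KO1 (−0.22 ± 0.04, adjusted p = 0.000139) but not in KO2 (−0.09 ± 0.04, adjusted p = 0.0692). BRCA1 had 13.12, 13.09 and 13.58 in KO2 and 11.68, 11.74 and 12.48 in KO1, against 13.39, 10.97 and 11.49 in WT, with overlap in both clones (0.14 ± 0.06, adjusted p = 0.0711 in KO2; 0.01 ± 0.06, adjusted p = 0.946 in KO1). FANCD2 had 12.02, 12.38 and 12.23 in KO2 and 12.83, 12.41 and 12.78 in KO1, against 13.11, 12.37 and 11.59 in WT. It overlapped in both clones and neither difference was called (−0.01 ± 0.06, adjusted p = 0.867 in KO2; 0.04 ± 0.06, adjusted p = 0.637 in KO1). Between the clones, KO2 minus KO1 had 6 of the 35 called higher and 3 lower (24.9% and 17.2% of all genes), from XRCC2 (0.43 ± 0.08, adjusted p = 0.000478) and ATM (0.37 ± 0.09, adjusted p = 0.00352) to UBE2T (−0.30 ± 0.04, adjusted p = 1.01e-05). With the trend by transcript length removed this count became 1 higher and 6 lower (16.7% and 18.3% of all genes). With quantile scaling it was 5 higher and 4 lower (21.4% and 18.7% of all genes), and with size factor scaling also 5 and 4 (19.8% and 21.7% of all genes).

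With FOXM1c returned to Delta47 KO2 cells, the balance of higher and lower calls among the 35 depended on the processing. It changed with the scaling and with the treatment of transcript length. KO2R minus KO2 had 8 called higher and 10 lower (25.2% and 36.8% of all genes). With quantile scaling these were 9 higher and 6 lower (30.4% and 31.1% of all genes), and with size factor scaling likewise 9 and 6 (31.5% and 30.7% of all genes). With the trend by transcript length removed they were 13 higher and 3 lower (28.4% and 28.3% of all genes). The libraries of 6 genes lay wholly above KO2 and of 13 wholly below (26.9% and 38.7% of all genes). The control here was untransduced, and the empty-vector group of Delta47 was not analysed here, so effects of the vector and the sort cannot be told apart from FOXM1. The epithelial markers summed to 12.01 to 12.87 in KO2R and 9.59 to 11.2 in KO2, the plasma cell markers to 4433.99 to 4441.42 in KO2R and 3241.59 to 3294.88 in KO2, and the B cell markers to 6.73 to 7.48 in KO2R and 11.74 to 12.27 in KO2. Their part in the result was not tested. UBE2T had 127.31, 122.62 and 121.55 in KO2R, against 74.79, 79.27 and 72.69 in KO2. KO2R lay far above KO2, and UBE2T rose by 0.71 ± 0.04 (adjusted p = 5.28e-10), the largest change of the 35 in this comparison. CHEK2 (0.33), RAD51AP1 (0.32), FANCL, the ubiquitin ligase subunit of the core (0.23), RBBP8 (0.22), FANCF (0.21), RAD54B (0.18) and RAD18 (0.14) were also called higher. ATR (−0.41), BRCA1 (−0.39), XRCC2 (−0.36), BLM (−0.27), FANCC (−0.22), TOPBP1 (−0.21), RAD50 (−0.20), FANCE (−0.19), CHEK1 (−0.12) and FANCI (−0.11) were called lower. Of these, RAD50, TOPBP1, CHEK1 and FANCI changed sign with the length trend removed.

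Of the 35, RAD54B, RAD18 and FANCF, were called lower in a Delta47 clone and higher in KO2R than in KO2. RAD54B had 8.97, 9.56 and 10.6 in KO2R, against 7.7, 8.65 and 9.02 in KO2. The groups overlapped, and RAD54B rose by 0.18 ± 0.07 (adjusted p = 0.0415), a call lost in 4 of 6 fits leaving out a library. RAD18, the ubiquitin ligase of damage tolerance, had 11.96, 13.58 and 13.24 in KO2R and 11.32, 12 and 11.45 in KO2. These also overlapped, and RAD18 rose by 0.14 ± 0.05 (adjusted p = 0.0295, likewise lost in 4 of 6 fits). Its fall was called in KO1 (11.67, 10.81 and 10.94, against 12.81, 12.48 and 12 in WT), not in KO2, the clone that carries the vector. FANCF had 5.67, 5.49 and 5.76 in KO2R, 4.71, 4.83 and 4.68 in KO2 and 5.61, 5.7 and 5.74 in WT. KO2 lay below both, with a rise in KO2R of 0.21 ± 0.05 over KO2 (adjusted p = 0.00242) and a fall in KO2 of 0.22 ± 0.05 against WT (adjusted p = 0.0029), both kept in every fit leaving out a library.

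Of the 6 genes shared by both Delta47 clones, ATR, BLM, RBBP8 and RAD50 moved further from WT with the vector. ATR had 5.31, 5.46 and 6.33 in KO2R, against 8, 7.71 and 8.01 in KO2, with no overlap (−0.41 ± 0.07, adjusted p = 4.64e-05). BLM had 5.7, 6.18 and 6.02 in KO2R, against 7.67, 7.72 and 6.83 in KO2, also with no overlap (−0.27 ± 0.06, adjusted p = 0.000937). With the length trend removed, these values were −0.10 (adjusted p = 0.103) for ATR and −0.08 (adjusted p = 0.278) for BLM, and neither was called. RBBP8 had 26.18, 24.94 and 27.86 in KO2R, against 22.53, 22.13 and 22.77 in KO2, so it rose further (0.22 ± 0.05, adjusted p = 0.00107). RAD50 had 10.36, 11.98 and 12.63 in KO2R, against 13.33, 13.97 and 13.11 in KO2 (−0.20 ± 0.07, adjusted p = 0.0218, and 0.12 with the length trend removed). RAD54L had 8.37, 8.24 and 8.54 in KO2R, against 9.84, 8.51 and 9.19 in KO2, which overlapped (−0.12 ± 0.05, adjusted p = 0.0769).

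BRCA1 had 9.57, 9.88 and 10.32 in KO2R, against 13.12, 13.09 and 13.58 in KO2. KO2R lay wholly below (−0.39 ± 0.06, adjusted p = 4.87e-05). CHEK1 had 51.12, 50.48 and 52.81 in KO2R, against 55.3, 56.45 and 56.66 in KO2, also wholly below (−0.12 ± 0.04, adjusted p = 0.00907). With the length trend removed the CHEK1 difference turned positive and was not called (0.0327, adjusted p = 0.413). BRCA2 (0.68, 0.92 and 0.88 in KO2R), FANCD2 (11.82, 13.06 and 13.96) and ATM (9.67, 10.93 and 12.11) were not called against KO2 (−0.15, 0.08 and −0.16; adjusted p = 0.141, 0.269 and 0.122). Against WT, KO2R had 7 of the 35 called higher and 11 lower (34.2% and 34.9% of all genes), and with the length trend removed 13 higher and 6 lower (32.3% and 33.2% of all genes). Before that removal the calls were led by UBE2T (0.63 ± 0.04, adjusted p = 4.38e-10) and ATR (−0.71 ± 0.07, adjusted p = 9.25e-08).

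Transcript length moved with the Delta47 values. Over all 10787 tested genes with a length, longer transcripts tended to be lower in KO1 than in WT (Spearman's rho −0.397 across genes) and lower in KO2R than in KO2 (−0.547), with little trend in KO2 against WT (−0.066). These are descriptions across genes of the same libraries, and genes are not independent replicates. The 35 genes are long, with a median of 4003 bases against 2744 bases for all genes, and range between 908 bases (UBE2T) and 13147 bases (ATM). Across the 35 genes the rho was −0.52 in KO1 minus WT, −0.13 in KO2 minus WT and −0.58 in KO2R minus KO2. With the length trend of each library removed, KO1 had 7 of the 35 called higher and 7 lower (23.7% and 24.6% of all genes), KO2 had 3 higher and 10 lower (20.7% and 21.5%), and the KO2R counts stand beside that comparison. ATR then stayed called lower in KO1 (−0.33, adjusted p = 9.4e-05) and KO2 (−0.31, adjusted p = 0.000173). RAD54L stayed called higher in KO1 (0.31, adjusted p = 0.00016) and KO2 (0.43, adjusted p = 6.32e-06). BRCA2 in KO1 was not called (−0.13, adjusted p = 0.125), nor was RAD50 in KO1 (−0.01, adjusted p = 0.927), RBBP8 in KO2 (0.09, adjusted p = 0.108) or UBE2T in KO1 (0.05, adjusted p = 0.289). In KO2R minus KO2, UBE2T stayed called higher at 0.42 (adjusted p = 1.44e-07), RAD54B at 0.22 (adjusted p = 0.0133) and RAD18 at 0.39 (adjusted p = 5.69e-06). In OPM2 the trend over all genes was strongest in KO1EV minus KO1 (rho −0.325), and CHEK1 kept each of its OPM2 calls with the trend removed (0.78, adjusted p = 1.7e-06 in KO1R minus KO1EV).

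**Figure D5:**
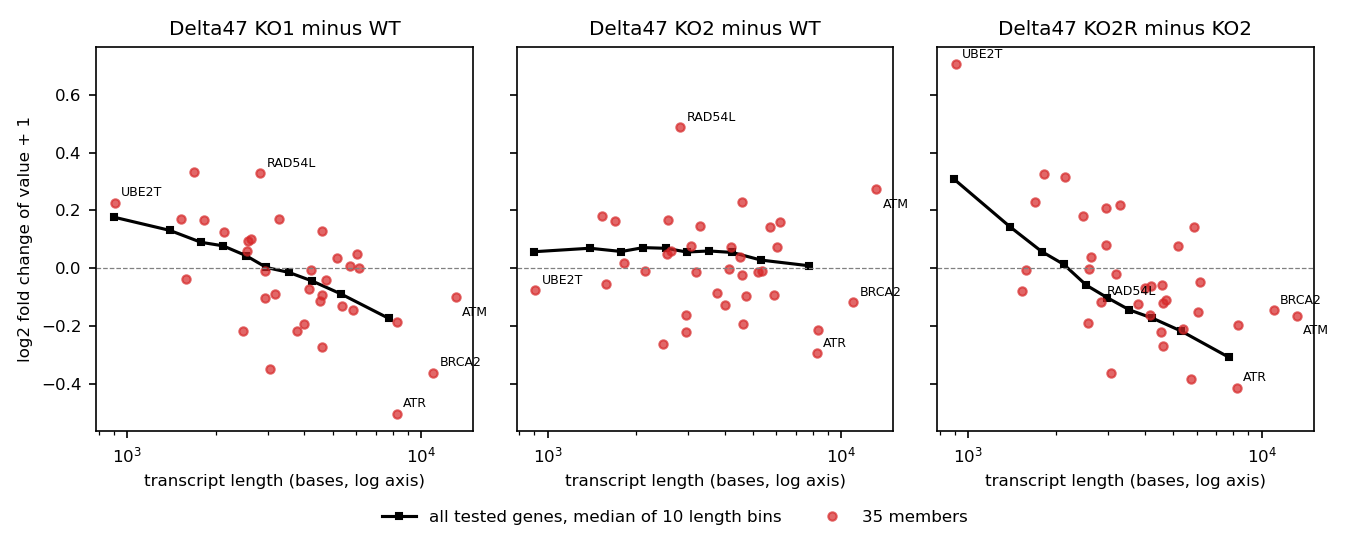
Log2 fold change of value + 1 (y axis) against transcript length in bases (x axis, log scale) for the 35 genes (red points) in 3 Delta47 comparisons, with the median of all tested genes in 10 length bins as a black line. The line falls with length in KO1 minus WT and in KO2R minus KO2 and is nearly flat in KO2 minus WT. UBE2T, the shortest at 908 bases, stands at 0.71 in KO2R minus KO2, and ATR stands at −0.50 in KO1 minus WT.

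Other genes of the same and neighbouring pathways were counted from 5 lists. Their counts stand against all genes called higher and lower, which were 14.5% and 6.72% in OPM2 KO1, 6.54% and 7.82% in OPM2 KO2, and 3.1% and 5.12% in KO1R against KO1EV. In Delta47 these shares were 28.9% and 23.7% in KO1, 28.4% and 15.2% in KO2, and 25.2% and 36.8% in KO2R against KO2. Of 39 other recombination and Fanconi genes, 5 were called higher and 3 lower in OPM2 KO1, 0 and 1 in OPM2 KO2, 10 and 7 in Delta47 KO1, 8 and 3 in Delta47 KO2, and 14 and 10 in Delta47 KO2R against KO2. RMI2, a partner of BLM, fell in OPM2 KO1 (−0.70 ± 0.16, adjusted p = 0.00834) and in Delta47 KO2 (−0.48 ± 0.07, adjusted p = 4.17e-05). RPA3, a subunit of the complex that coats single strands, rose in Delta47 KO1 (0.54 ± 0.05, adjusted p = 5.11e-07) and KO2 (0.25 ± 0.05, adjusted p = 0.00114) and again in KO2R over KO2 (0.54 ± 0.05, adjusted p = 2.72e-07). Of 19 other checkpoint genes, 3 were called higher and 0 lower in OPM2 KO1, 0 and 3 in OPM2 KO2, 2 and 0 in KO1R against KO1EV, 3 and 6 in Delta47 KO1, 4 and 1 in Delta47 KO2, and 2 and 10 in Delta47 KO2R against KO2. H2AFX, the histone that ATM phosphorylates at breaks, fell in OPM2 KO2 by 0.94 ± 0.09 (adjusted p = 2.07e-05). In Delta47 KO1 it rose by 0.37 ± 0.06 (adjusted p = 5.93e-05). CDC25A, the phosphatase that CHEK1 targets, rose in KO1R against KO1EV by 0.80 ± 0.14 (adjusted p = 0.00246). In Delta47, CDC25A was lower than in WT both in KO1 (−0.34 ± 0.04, adjusted p = 8.88e-06) and in KO2R (−0.37 ± 0.04, adjusted p = 1.28e-06). MDC1, which binds that histone mark, fell in Delta47 KO1 (−0.59 ± 0.06, adjusted p = 2.55e-07), in Delta47 KO2 (−0.40 ± 0.06, adjusted p = 1.99e-05) and with the FOXM1 vector, KO2R against KO2 (−0.61 ± 0.06, adjusted p = 1.19e-07). With the length trend removed the MDC1 values were −0.42, −0.42 and −0.31, all called.

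Against the same shares of all genes, of 10 end joining genes 2 were called higher and 2 lower in Delta47 KO1, 2 and 4 in Delta47 KO2, 3 and 1 in KO2R against KO2, and 1 and 1 in OPM2 KO2. PRKDC, the DNA-dependent protein kinase, fell in Delta47 KO1 by 1.22 ± 0.08, with an adjusted p of 2.81e-09. Its fall was 0.60 ± 0.08 in Delta47 KO2, with an adjusted p of 1.05e-05, and a further 0.86 ± 0.08 in KO2R against KO2, with an adjusted p of 1.22e-07. Its transcript is among the longest, and with the length trend removed these values were −0.96, −0.61 and −0.47, all called. XRCC6, the Ku70 gene, rose in OPM2 KO2 (0.54 ± 0.12, adjusted p = 0.0102). Of 7 mismatch repair genes, 3 were called higher and 1 lower in Delta47 KO1, 0 and 2 in Delta47 KO2, and 2 and 1 in KO2R against KO2. MSH6 fell in both Delta47 clones (KO1 −0.27 ± 0.05 with an adjusted p of 0.000107, KO2 −0.33 ± 0.05 with an adjusted p of 1.89e-05). Of 15 base excision genes, 1 was called higher and 1 lower in OPM2 KO1, 2 and 0 in OPM2 KO2, 6 and 1 in Delta47 KO1, 4 and 0 in Delta47 KO2, and 8 and 4 in KO2R against KO2. PARP1, which senses nicks, rose in OPM2 KO2 (0.33 ± 0.09, adjusted p = 0.0203, up to 0.0676 with a library left out) and fell in Delta47 KO1 (−0.28 ± 0.04, adjusted p = 1.82e-05), and was lower in KO2R than in KO2 (−0.54 ± 0.04, adjusted p = 9.03e-09).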

How the data were processed

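Poly-A RNA of 27 of the 30 samples, in 9 groups, was analysed here. Reads were paired, 100 bases long and from a DNBSEQ platform, per the labels' protocols. The genome build was hg19, per the submitters' processing notes. For the aligner, the counter and the strand setting, the method is not given in the sources used here. The OPM2 table holds FPKM values that the authors computed, per the file headers. The Delta47 table holds the authors' deposited expression values, taken here as a signal because the header names no unit, and the columns for the FOXM1 vector group were matched to KO2R by the letter R. Of the Delta47 values, 3 columns could not be matched to a sample and were not used. Column totals were 510776 to 566016 in OPM2 and 534185 to 633778 in Delta47. Read depth is unknown, so no counting intervals are given. Date-like names stood in place of 23 OPM2 and 24 Delta47 gene symbols. They were replaced by the RefSeq symbol of the same gene ID where the ID was found.

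All groups of a line were fitted together with limma 3.58.1 (trended variance, R 4.3.3) on log2(value + 1), for genes with a value of 1 or more in at least 3 libraries. Tests were two-sided, p-values were adjusted by Benjamini-Hochberg over all genes tested, and genes with an adjusted p below 0.05 were called. Errors of fold changes are SE. The fit was tested on simulated data, drawn with independent noise for each gene and library. That test does not cover libraries that stand apart or that deviate together. The 35 genes, the 5 other pathway lists and the tests were chosen with earlier results of these data known. Values in every library are given for genes called in the same direction in both clones of a line, for genes called in opposite directions in a clone and with the FOXM1 vector, and for FOXM1, BRCA1, BRCA2, FANCD2, CHEK1 and ATM. Of each other list up to 4 called genes by smallest adjusted p could be named. Alternatives were other pseudocounts, filters, quantile and size factor scaling, a replicate block, only the groups compared, removal of a lowess trend with transcript length (GENCODE 29) from each library, and leaving out libraries. Some results on other genes of these pathways are not reported here. Same-numbered libraries of OPM2 KO1 and WT deviated together (r = 0.412, 0.152 and 0.209), a pairing seen in the data and not stated by the labels, so the blocked count stands beside that comparison.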

Additional observations from a re-analysis of the deposited data

Results flagged for a closer look

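The FOXM1 vector groups were set against the untransduced clone they came from (KO1R minus KO1 in OPM2, KO2R minus KO2 in Delta47). In 5 of the 35 genes every vector library lay on one side of its clone in OPM2 and on the other side in Delta47. How many of all genes did so was not counted, so 5 may be an ordinary number. In Delta47 alone, 26.9% of all genes lay wholly above KO2 in KO2R and 38.7% wholly below. The difference between the lines was not tested, since the lines stand in separate tables. RAD51AP1 had a log2 difference of −0.10 in OPM2 and 0.32 in Delta47. FANCL had −0.27 in OPM2 and 0.23 in Delta47. UBE2T had −0.39 in OPM2 and 0.71 in Delta47. TOPBP1 had 0.31 in OPM2 and −0.21 in Delta47, and CHEK1 had 0.37 in OPM2 and −0.12 in Delta47. With the length trend removed, the Delta47 differences of TOPBP1 (0.0165) and CHEK1 (0.0327) were positive too, so these 2 no longer ran opposite ways. Against the empty vector (KO1R minus KO1EV in OPM2), the differences were 0.02 for RAD51AP1, whose libraries overlapped, −0.17 for FANCL, −0.24 for UBE2T, 0.39 for TOPBP1 and 0.71 for CHEK1.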

How the results depend on the processing

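Of the 113 called values of single genes, all 113 kept their call and direction with a pseudocount of 0.1 or 5, 102 with quantile scaling, 103 with size factor scaling, 100 with no filter on low values, 90 with only the groups compared and 84 with the length trend removed. The 113 include the calls of FOXM1. Removing the length trend also leaves out the genes without a length (10787 of 11001 Delta47 genes kept). Of the 113, 5 reversed direction with that trend removed. Counting also values called only after that removal, directions reversed in 12 values, all in Delta47 with the length trend removed. They were ATM in KO1 minus WT (0.16), then BRCA2 (0.22), RAD50 (0.12), NBN (0.13), EXO1 (0.10), FANCM (0.21), FANCI (0.0891), ATM (0.23), TOPBP1 (0.0165) and CHEK1 (0.0327) in KO2R minus KO2, and BRCA2 (0.0880) and BRIP1 (0.15) in KO2R minus WT. The count of the 35 called in OPM2 moved most. The number in brackets after a count is that of all genes called, of 10309 tested unless another total is named. KO1 minus WT had 5 with size factor scaling (2148) and 6 with the replicate block (2627). With the length trend removed it had 5 (2173 of 10199). It had 19 with only the groups compared (5613) and 21 without the 2 libraries that stand apart (6068). With a replicate left out it had 1 to 2 (1224 to 1509). The 1 came without KO1 replicate 2, WT replicate 1 or WT replicate 3. KO2 minus WT had 1 with only the groups compared (390) and 23 without the 2 libraries (4243). With a replicate left out it had 3 to 19 (937 to 3131). The 19 came without KO2 replicate 3, and the 3 without WT replicate 1 or WT replicate 2. KO1EV minus KO1 had 2 with size factor scaling (539), the replicate block (553) or the length trend removed (485 of 10199). It had 3 with only the groups compared (624) and 13 without the 2 libraries (3302). With a replicate left out it had 1 to 2 (246 to 597), and the 2 came without KO1EV replicate 3. KO1R minus KO1EV had 1 with no filter (878 of 16407), 5 with only the groups compared (1412) and 8 without the 2 libraries (2726). With a replicate left out it had 1 to 2 (424 to 576), and the 2 came without KO1EV replicate 3. KO1R minus WT had 8 with only the groups compared (4146) and 10 without the 2 libraries (4589). With a replicate left out it had 2 to 3 (863 to 1200). KO2 minus KO1 had 4 with only the groups compared (1195) and 29 without the 2 libraries (6979). With a replicate left out it had 11 to 29 (2169 to 6270). Delta47 KO2 minus WT had 6 to 11 with a replicate left out (4098 to 4326 of 11001). The 6 came without KO2 replicate 1 or KO2 replicate 3. Same-numbered libraries met the pairing rule (every r over 0.1) in none of the Delta47 comparisons (r −0.223 to 0.201 over 18 pairs). In OPM2 (−0.197 to 0.751 over 30 pairs) KO1 with WT met it, and so did KO2 with KO1EV, which were not compared. In OPM2 KO1EV minus KO1, which did not meet it, the block added a call. Over all comparisons, 112 of the 113 called values kept their call with the replicate block. The cause of these movements was not tested. Fitted with only the groups compared, the spread rests on 6 libraries, and read depth, which would limit the lowest genes, is unknown.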
